A study of Homo sapiens with 6 samples.

Results

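DEK peaks in the distal end of the long arm of chromosome 19 were taken from the peak lists of both DEK precipitations, as every peak overlapping chr19:52500000-59128983 of the hg19 build. This interval gave 917 peaks, 36 of the 15017 in the list of replicate 1 and 881 of the 152779 in the list of replicate 2. DEK binding had been mapped by chromatin immunoprecipitation followed by high-throughput sequencing (ChIP-seq) in U937, a human myeloid cell line with monocytic features, grown without any treatment named in the labels. The 6 samples are 2 precipitations with an antibody against DEK, 2 with an antibody against histone H3 trimethylated at lysine 4 (H3K4me3) and 2 of non-precipitated chromatin (input), all from the same unmodified line, and peak lists of the DEK and H3K4me3 precipitations were analysed. The paper describes the DEK precipitations as 2 independent experiments under the same conditions. Neither it nor the labels say whether the replicates came from separate cultures, so the spread between them may be technical.

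DEK is a chromatin protein that introduces supercoils into DNA, binds histones and has been linked to both open chromatin and heterochromatin. Distal 19q is known for its arrays of C2H2 zinc-finger genes, most of which arose by local duplication and encode a KRAB repressor domain followed by a run of fingers in a long last exon. KRAB zinc-finger proteins recruit TRIM28, whose own gene lies at the end of the chromosome, and the 3-prime exons of these genes are a well-known site of histone H3 lysine 9 trimethylation, while their promoters carry active marks. Between the zinc-finger arrays lies the leukocyte receptor complex, with the LILR, LAIR and KIR families of immune receptors.

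The annotation placed 233 protein-coding genes in the interval, of which 108 were zinc-finger genes by symbol, against 161 of 1247 in the rest of the chromosome. The interval was therefore not made up of zinc-finger genes alone. In steps of 500 kb, 98 of the 108 zinc-finger genes fell into 8 steps on either side of the leukocyte receptor complex, and the other 6 steps held 10.

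The sequence under the peaks differed in kind. Below are exon-free stretches, strand as stated, from within 3 intervals bound in both precipitations and from just upstream of the start of ZNF324, with every CpG in capitals, followed by coding sequence under a replicate 2 peak. They are shown because they represent a non-zinc-finger promoter, a zinc-finger promoter, a zinc-finger gene body, a repeat within such a body, and a finger array.
TFPT intron next to the TFPT and PRPF31 start sites, chr19:54618455-54618626, plus strand: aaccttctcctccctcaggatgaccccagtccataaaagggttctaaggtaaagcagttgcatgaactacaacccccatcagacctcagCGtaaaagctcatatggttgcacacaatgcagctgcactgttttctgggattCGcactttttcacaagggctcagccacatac
ZNF324 promoter, chr19:58978222-58978422, plus strand: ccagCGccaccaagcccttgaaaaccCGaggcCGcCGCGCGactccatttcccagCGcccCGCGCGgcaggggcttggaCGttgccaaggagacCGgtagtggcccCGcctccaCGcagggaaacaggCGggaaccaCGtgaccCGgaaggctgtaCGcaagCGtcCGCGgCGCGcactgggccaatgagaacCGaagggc
ZNF787 intron, chr19:56630868-56631068, minus strand: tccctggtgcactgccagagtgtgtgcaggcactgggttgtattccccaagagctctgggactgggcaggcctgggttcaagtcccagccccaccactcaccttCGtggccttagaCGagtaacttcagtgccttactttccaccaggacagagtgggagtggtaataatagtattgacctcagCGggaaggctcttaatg
ZSCAN5A intron, chr19:56747459-56747659, minus strand: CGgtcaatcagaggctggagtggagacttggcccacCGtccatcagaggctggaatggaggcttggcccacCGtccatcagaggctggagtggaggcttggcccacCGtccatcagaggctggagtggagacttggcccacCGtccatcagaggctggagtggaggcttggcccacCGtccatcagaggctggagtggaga
ZNF71 last exon, chr19:57133481-57133731, plus strand: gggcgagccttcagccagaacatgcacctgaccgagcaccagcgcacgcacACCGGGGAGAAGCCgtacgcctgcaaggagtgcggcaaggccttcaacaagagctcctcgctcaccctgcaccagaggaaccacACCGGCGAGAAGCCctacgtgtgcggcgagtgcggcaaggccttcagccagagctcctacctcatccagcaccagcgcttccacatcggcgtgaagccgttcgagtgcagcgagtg
The ZNF324 stretch had a GC content of 69.7% and 24 CpG in 201 bases, whereas the ZNF787 intron had 55.2% and 3. The ZSCAN5A stretch was a tandem repeat, in which 95.2% of the letters equalled the letter 35 bases further on. In the ZNF71 stretch the capitals mark the 2 matches to the codons of the conserved linker that joins neighbouring fingers.

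DEK peaks were not denser in distal 19q than in the rest of chromosome 19 beyond counting error, and in replicate 2 they were sparser. Replicate 1 had 5.44 peaks per Mb (95% Poisson interval 3.81 to 7.53) against 4.92 in the rest, a ratio of 1.11 (0.756 to 1.57). Replicate 2 had 133 peaks per Mb (124 to 142) against 148, a ratio of 0.899 (0.837 to 0.964). The mean of the 2 ratios was 1.00 ± 0.146 (SD, n = 2), so the lists disagreed on the direction and only that of replicate 2 excluded a ratio of 1. Among peaks with a deposited score (10 times the negative log10 of the MACS p-value) of at least 100, the ratio was 0.676 (0.263 to 1.46; 7 peaks) in replicate 1 and 0.784 (0.693 to 0.884; 297 peaks) in replicate 2. With replicate 2 cut to its 15017 highest-scoring peaks its ratio was 0.752 (0.623 to 0.902). Peaks covered 0.832% of distal 19q in replicate 1 and 14.1% in replicate 2, against 0.904% and 19% of the rest. All intervals here cover counting error only, since neighbouring peaks share a library and are not independent.

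The replicate 1 list was far shorter than that of replicate 2 here as elsewhere. Its scores ran from 50.1 to 204 with a median of 67.8, the tag counts (reads in the peak) from 24 to 297 with a median of 60, and every one carried a false discovery rate of 100%. In the rest of the chromosome the medians were 77.8 and 85.5 tags, with the same false discovery rate throughout. Replicate 2 scores ran from 50.1 to 2250 with a median of 80.6, tag counts from 12 to 322 with a median of 24, and false discovery rates from 0.75% to 5.56%. Over the whole genome the peaks held 988363 tags in replicate 1 and 4172422 in replicate 2. The sequencing depth of each sample is unknown, since the paper gives only a minimum number of reads.

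Along the interval, replicate 2 peaks were sparser where zinc-finger genes were at least 50% of the coding genes. In the 8 such steps of 500 kb there were 414 peaks, or 104 per Mb (93.8 to 114), against 178 per Mb (162 to 194) in the other 6 steps, a ratio of 0.583 (0.509 to 0.666). Replicate 1 had 15 peaks in the same 8 steps, or 3.75 per Mb, against 7.99 per Mb, a ratio of 0.470 (0.225 to 0.955). The split into steps was chosen after the data were seen. The density was not even among the zinc-finger-rich steps: replicate 2 had 50 peaks per Mb in the most proximal step, with 13 zinc-finger genes of 14, and 178 per Mb in a distal step, with 16 of 21. The steps with 24 and 31 coding genes, in and beyond the leukocyte receptor complex, had 234 and 232 per Mb. GC content moved with the same split, from 43.4% to 49.8% in the zinc-finger-rich steps and from 46.7% to 54.4% in the others, and its part in the densities was not tested.

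**Figure D1:**
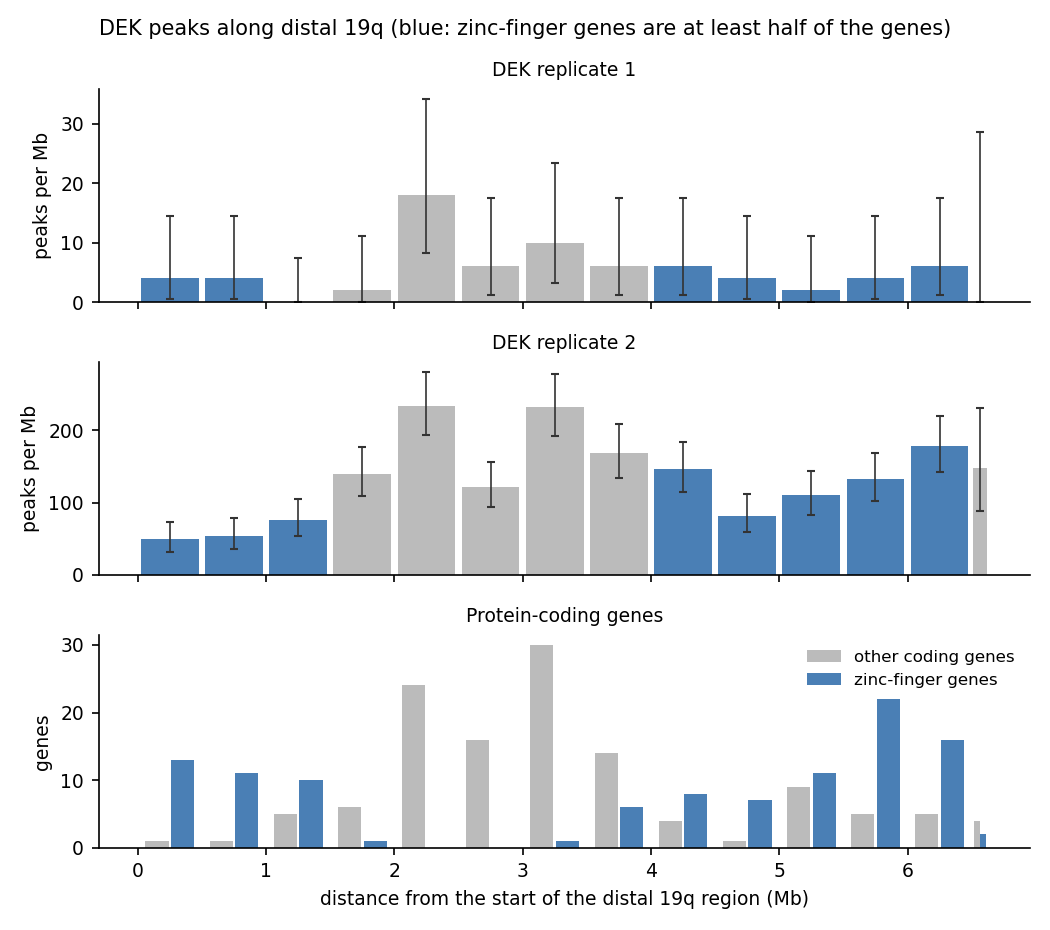
DEK peaks per Mb of each replicate (upper panels, bars with 95% Poisson intervals) and number of protein-coding genes (lower panel) in 500 kb steps, by distance in Mb from the start of the interval; the last step is 0.129 Mb long. Blue marks steps in which zinc-finger genes are at least 50% of the genes: replicate 2 ranged from 50 to 178 peaks per Mb there and from 122 to 234 in the grey steps.

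The precipitations shared 24 intervals in distal 19q, where an overlap of at least 1 bp counted as shared. They came from 18 of the 36 replicate 1 peaks, or 50% (Wilson interval 34.5 to 65.5), and 23 of the 881 replicate 2 peaks, or 2.61% (1.75 to 3.89). In the rest of the chromosome the shares were 53.7% and 2.24%, and the differences of -3.72 (-20.4 to 13) and 0.372 (-0.567 to 1.69) percentage points both included 0. Shared intervals occurred at 3.63 per Mb against 3.31, a ratio of 1.09 (0.681 to 1.69). When the overlap had to span 50% or more of the replicate 1 peak and also of the replicate 2 peak, 9 were left, with a score of at least 100 in both lists 6, and with replicate 2 cut to its 15017 highest-scoring peaks 11.

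The share of shared intervals in zinc-finger genes was near that of all replicate 1 peaks. Those peaks include the ones that gave the shared intervals, so some of this nearness is built in. Of the 24, 5 had their middle in a zinc-finger gene or its promoter or 3-prime zone and 8 lay between genes, against 9 of 163 in zinc-finger zones in the rest of the chromosome. Among these 5, 2 came from 1 replicate 1 peak in ZSCAN5A. Zinc-finger promoters, 3-prime zones and bodies made up 7.31%, 10.3% and 21.9% of the bases of distal 19q. In the rest of the chromosome they made up only 1.38%, 2.90% and 7.70%, so the 2 shares are not directly comparable. Over all peaks of the interval, 7 of 36 (19.4%) in replicate 1 and 29.5% in replicate 2 were in zinc-finger zones. The shared intervals covered 23.3 kb in all, with a median width of 790 bp. Replicate 1 had the higher tag count in 19 of the 24, while replicate 2 had the higher score in 18.

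The highest-ranking shared interval, by the lower of its 2 scores, spanned the divergent start sites of TFPT, a subunit of the INO80 remodelling complex, and PRPF31, a splicing factor (chr19:54617235-54620087). It had a score of 204 with 156 tags in replicate 1 and 212 with 132 tags in replicate 2, and overlapped H3K4me3 in both lists. It scored about the same in both precipitations.

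A cluster of 6 shared intervals fell within the annotated span of RPS9, which encodes a protein of the small ribosomal subunit. That span runs 48186 bp, far past its last coding exon and across LILRB3 and LILRA6, because of a long annotated transcript, so these peaks need not belong to RPS9. The strongest, chr19:54712115-54712932, scored 152 with 173 tags in replicate 1 and 535 with 121 tags in replicate 2. All 6 overlapped an H3K4me3 peak in the list of replicate 1 and none in that of replicate 2. They came from only 3 replicate 1 peaks.

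Further intervals among the 10 highest lay between genes upstream of PTPRH, a receptor-type tyrosine phosphatase (chr19:55727444-55729300; scores 135 and 324), upstream of LAIR1, an inhibitory collagen receptor of leukocytes (chr19:54900453-54901236; 153 and 114), and near RFPL4AL1 (chr19:56277826-56278337; 97.3 and 99.0). The first 2 overlapped H3K4me3 in both lists and the last in neither.

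ZNF324 was the only zinc-finger gene in the interval with a shared interval at its promoter. A replicate 1 peak of 3791 bp with 297 tags and a score of 121 covered both the promoter interval chr19:58977333-58979416 and a second one upstream, chr19:58975810-58976904. In replicate 2 these were separate peaks, with 164 tags and a score of 91.7 at the promoter and 82 tags and a score of 150 upstream. The promoter interval had its middle 49 bp before the start site, in CpG-rich sequence whose GC content was 70.1% within 150 bases of its middle, and overlapped H3K4me3 in both lists, while the upstream interval did so in 1 list and 56.5% of its 31-base words occurred more than once in the genome. The stretch of ZNF324 printed above comes from this promoter interval.

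In zinc-finger gene bodies, ZNF787 held the strongest shared interval. It lay in an intron, 1651 bp into the gene (chr19:56630269-56631668), scored 89.8 with 107 tags in replicate 1 and 456 with 236 tags in replicate 2, and overlapped H3K4me3 in both lists. The ZSCAN5A intron gave 2 shared intervals from 1 replicate 1 peak, of 27 tags and a score of 62.0. The wider, of 713 bp, covers the tandem repeat printed above, and the other is an overlap of only 14 bp beside it. Replicate 2 had scores of 179 and 87.8 there, and 95.9% and 77.1% of the 31-base words in their windows had other copies, so the placement of these reads is uncertain.

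ZNF419 held the only shared interval in a zinc-finger 3-prime zone (chr19:58006636-58007190). It was among the weakest, with scores of 59.0 and 55.2, no H3K4me3 in either list, and 62.4% of its words in more than 1 copy. Intervals upstream of ZNF808 and ZNF611 scored 56.1 and 55.8 in replicate 1 and 56.5 and 127 in replicate 2, again without H3K4me3.

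The largest contrast between the precipitations was at TMEM86B, which encodes lysoplasmalogenase, and the overlapping AC010327.2. The replicate 2 peak there had the highest score of the interval, 2250 with 322 tags over 6879 bp, whereas the replicate 1 peak had a score of 68.6 with 30 tags over 802 bp. Neither H3K4me3 list had a peak overlapping it.

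**Figure D2:**
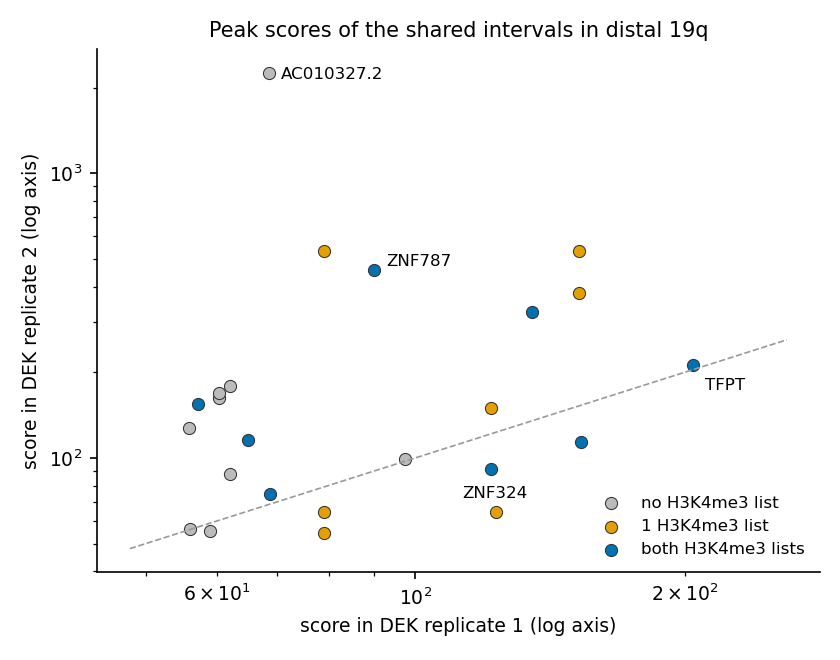
Score of each of the 24 shared intervals in DEK replicate 1 (horizontal, log axis) and replicate 2 (vertical, log axis), coloured by overlap with H3K4me3 lists; the dashed line marks equal scores. Replicate 2 was higher for 18 intervals, TFPT sat near the line at 204 and 212, and AC010327.2 lay farthest above it at 68.6 and 2250.

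Of the 24 intervals, 8 overlapped H3K4me3 in both lists, 7 in 1 list and 9 in neither. In the rest of chromosome 19 81 of 163 overlapped both lists. In 8 of the 24, over 50% of the 31-base words occurred more than once in the genome.

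The 18 unshared replicate 1 peaks were mostly weaker than the shared ones. Their median score was 63.0 and median tag count 42.5, against 73.9 and 97.5 for the 18 shared peaks. The strongest unshared peak lay at the promoter of LAIR1, with a score of 156 and 154 tags, and overlapped H3K4me3 in both lists. At zinc-finger genes the unshared peaks were those at the promoter of ZNF614, with a score of 50.1 and 47 tags, and in the bodies of the overlapping ZNF432 and ZNF841 and of ZNF274, with scores of 59.4 and 51.4. All 3 had scores below the median of the list.

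Shares of zinc-finger and other genes with a replicate 2 promoter peak did not differ beyond counting error in the interval. A promoter was the 1 kb either side of any annotated start site, and a peak was placed by its middle. In replicate 2, 68 of the 108 zinc-finger genes had a peak at the promoter, or 63.0% (53.6 to 71.5), against 80 of the 125 other genes, or 64%, a difference of -1.04 (-13.3 to 11.1) percentage points. The other genes included unnamed coding loci that start at or span zinc-finger genes, so some peaks counted in both groups. A peak with a score of 68.3 and 44 tags, for example, counted for ZNF419 and for an unnamed locus starting beside it. Over all protein-coding genes 56.9% had one in replicate 2. In the rest of the chromosome the shares were 62.7% of 161 zinc-finger genes and 71.1% of 1086 others.

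In replicate 1, 2 of the 108 zinc-finger promoters had a peak, those of ZNF324 and ZNF614, or 1.85% (0.509 to 6.50). Among other genes of the interval it was 7 of 125, or 5.6%, and among all protein-coding genes 8.45%. Other genes in the rest of the chromosome were also below that, at 4.88%. The difference between zinc-finger and other genes of the interval, -3.75 (-9.42 to 1.71) percentage points, included 0. A shared interval was at 1 of the 108, or 0.926% (0.164 to 5.06), at 4 of the 125 others, and at 4.38% of all protein-coding genes. The difference from the others was -2.27 (-7.07 to 2.30) percentage points and also included 0. The 4 other genes were TFPT, PRPF31, LILRA1 and AC010327.2. Shared intervals were placed by the middle of the overlap, and at LILRA1 and AC010327.2 the middle of the replicate 2 peak lay outside the promoter. Zinc-finger genes elsewhere on the chromosome were at 3.11% in replicate 1 and 2.48% shared, and those on other chromosomes at 8.14% and 4.65%.

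**Figure D3:**
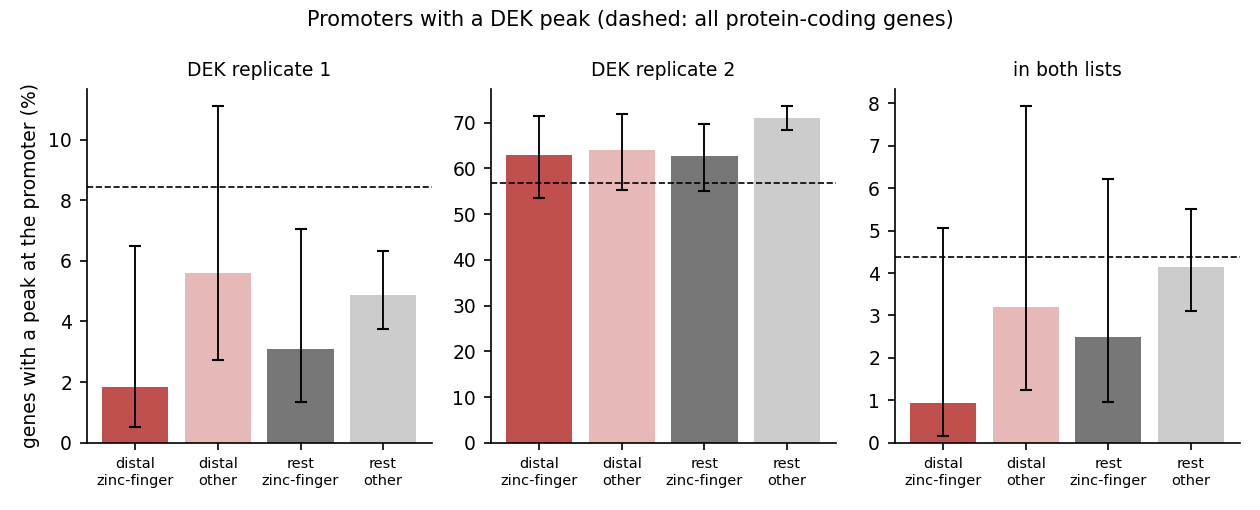
Percent of protein-coding genes with a DEK peak within 1 kb of a start site, for replicate 1, replicate 2 and intervals in both lists, with 95% Wilson intervals; the dashed line is the percent over all protein-coding genes. Distal zinc-finger genes stood at 1.85%, 63.0% and 0.926%, below the dashed line in replicate 1 and in both lists and above it in replicate 2; their interval included the line in replicate 2 and in both lists.

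The zinc-finger promoter with the highest score in replicate 2 was that of ZNF446, at 811 with 213 tags. It was followed by ZBTB45, a BTB-domain zinc-finger gene, at 428, ZNF132 at 403 with 82 tags, ZNF584 at 324 and ZNF787 at 323. ZBTB45, ZNF584 and ZNF787 each had 2 promoter peaks, whose highest tag counts were 140, 153 and 91, not necessarily in the highest-scoring peak. ZNF446, ZBTB45, ZNF584 and ZNF787 carried H3K4me3 at the promoter in both lists, and ZNF132 in neither. None of these 5 had a replicate 1 peak at the promoter. ZNF446, ZNF584, ZNF132, ZNF324 and ZBTB45 all lie near TRIM28 at the end of the interval.

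H3K4me3 was at the promoter in both lists for 69 of the 108 zinc-finger genes, or 63.9%, and for 60 of the 125 others, or 48%, a difference of 15.9 (3.10 to 27.9) percentage points. The others again included the unnamed loci that start at or span zinc-finger genes. Over all protein-coding genes the share was 58.6%, and over other genes in the rest of the chromosome 62.0%. Zinc-finger genes on other chromosomes stood at 76.45%. Among those with H3K4me3 in both lists, 47 of 69 zinc-finger promoters (68.1%) and 47 of 60 others (78.3%) had a replicate 2 DEK peak, a difference of -10.2 (-24.7 to 5.23). Without H3K4me3 in either list it was 18 of 35 (51.4%) and 28 of 57 (49.1%). Over all protein-coding genes, 71.5% with H3K4me3 in both lists and 34.6% without it in either had a replicate 2 DEK peak. Both zinc-finger promoters bound in replicate 1 had H3K4me3 in both lists, and so had 6 of the 7 others.

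By position within genes, zinc-finger promoters had more DEK peaks per Mb than zinc-finger bodies or 3-prime zones. The 3-prime zone ran from the start of the last exon of the longest coding transcript to 1 kb past the gene end, and the body was the remainder of the gene. In replicate 2, zinc-finger promoters held 85 peaks, or 176 per Mb (140 to 217), 3-prime zones 54, or 79.4 per Mb, and bodies 121, or 83.4 per Mb. The promoter density was 2.21 times (1.56 to 3.17) that of the 3-prime zones and 2.11 times (1.58 to 2.81) that of the bodies. The 3-prime zones and bodies did not differ beyond counting error, with a ratio of 0.953 (0.678 to 1.32).

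Each zone of the zinc-finger genes had fewer replicate 2 peaks than the matching zone of other genes in the interval. The ratios were 0.713 (0.535 to 0.945) at promoters, 0.477 (0.378 to 0.599) in bodies and 0.443 (0.293 to 0.671) in 3-prime zones. The last of these depended on how the zone was drawn: within 1 kb either side of the gene end the densities were 116 and 160 per Mb, a ratio of 0.726 (0.399 to 1.30). In ZNF586 and RPS9 the annotated gene runs far past the last coding exon, and these stretches held 9 and 14 replicate 2 peaks. Among peaks with a score of at least 100, the ratio of zinc-finger over other promoters was 0.442 (0.271 to 0.703). The ratios for bodies and 3-prime zones were then 0.438 (0.284 to 0.666) and 0.453 (0.215 to 0.965). The zinc-finger zones had similar densities in the rest of chromosome 19, with ratios of distal 19q over the rest of 0.940 (promoters), 1.24 (3-prime zones) and 1.07 (bodies), whose intervals all included 1. Of all 7 zones the space between genes alone differed beyond counting error, at 117 against 98.6 per Mb, a ratio of 1.19 (1.03 to 1.36).

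In replicate 1 the counts were too small to rank the zones. Zinc-finger promoters held 2 peaks, 3-prime zones 1 and bodies 4, against 7, 3 and 4 in the zones of other genes and 15 between genes. The ratio of zinc-finger over other was 0.304 (0.0308 to 1.60) at promoters and 0.828 (0.154 to 4.44) in bodies. Averaged over the 2 lists, 7.60% ± 2.89 of the peaks were at zinc-finger promoters and 16.9% ± 4.22 in zinc-finger bodies or 3-prime zones (SD, n = 2).

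**Figure D4:**
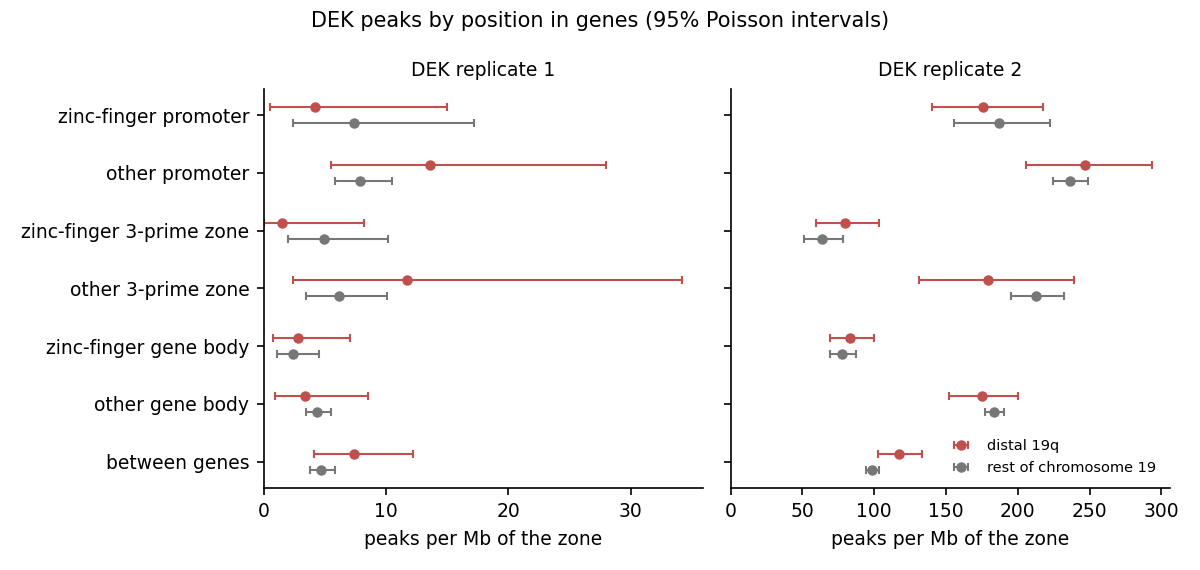
DEK peaks per Mb of each zone in replicate 1 (left) and replicate 2 (right), in distal 19q (red) and the rest of chromosome 19 (grey), with 95% Poisson intervals. In replicate 2 zinc-finger promoters stood at 176 per Mb, above zinc-finger 3-prime zones at 79.4 and bodies at 83.4, and each was near its value in the rest of the chromosome.

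Around the annotated gene starts, replicate 2 peaks of zinc-finger genes reached 296 per Mb (203 to 418) in the 1 kb after the start and 204 per Mb in the 1 kb before it. Other genes had 240 and 288 per Mb in the same steps. Near the gene end the zinc-finger profile stood at 46.3 per Mb (15.0 to 108) 2 to 3 kb before the end and at 185 per Mb (113 to 286) 1 to 2 kb past it. Other genes had 168 and 136 per Mb there. Lows of that size were not particular to the gene end, since the profile was also at 37.04 per Mb 3 to 4 kb before the start and at 46.3 per Mb 5 to 6 kb after it.

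**Figure D5:**
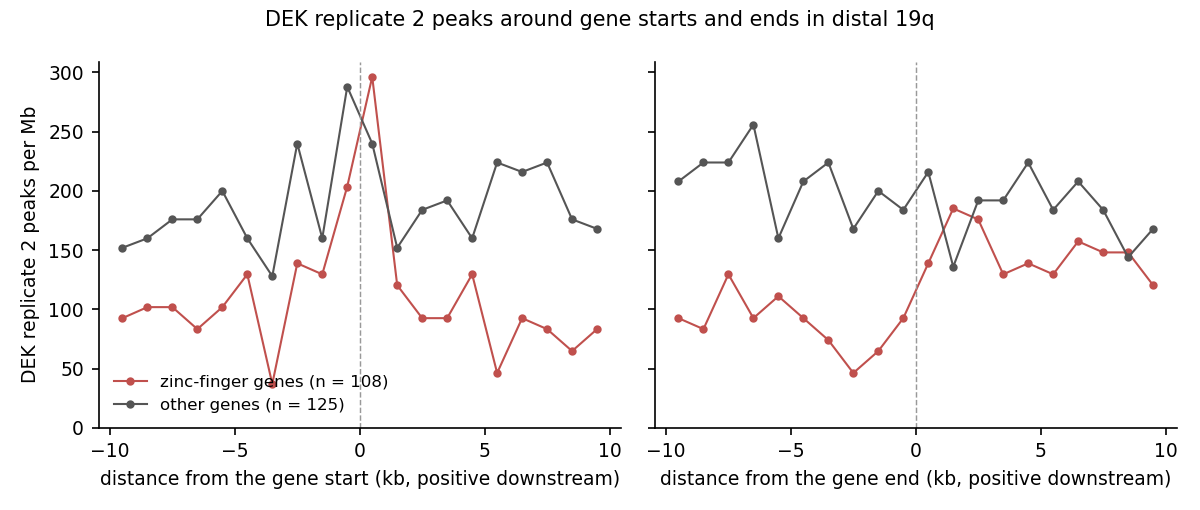
Replicate 2 DEK peaks per Mb in 1 kb steps by distance in kb from the annotated gene start (left) and gene end (right), for the 108 zinc-finger genes (red) and 125 other genes (dark grey) of distal 19q. The zinc-finger line reached 296 in the 1 kb after the start; its low points were 37.04 at 3 to 4 kb before the start, and 46.3 both at 5 to 6 kb after the start and at 2 to 3 kb before the end.

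Before the gene end lies the exon that encodes the finger array, with a median length of 3135 bp. Zinc-finger last exons covered 0.34 Mb and held 508 of the 589 linker matches of the interval. Replicate 1 had no peak with its middle in them, with a Poisson upper limit of 10.9 per Mb, and replicate 2 had 18, or 53.0 per Mb (31.4 to 83.7). Of these 18, 3 overlapped H3K4me3 and 5 had a linker match within 150 bases of the middle. The last exon of ZNF324 held the highest score, 269 with 88 tags, in a peak that also lay within 1 kb of an annotated ZNF324 start site. ZNF71, whose fingers are printed above, followed with 262 and 62 tags, and ZNF446 with 257 and 93 tags. Over all replicate 2 peaks of the interval, 0.567% of windows had a linker match, against 1.39% of all windows of that length in the interval.

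Most zinc-finger genes had few peaks each. In replicate 2, 18 of the 108 had none within the gene, 31 had 1, 24 had 2 and 5 had 6 or more. The 5 were ZSCAN5A with 21, ZNF586 with 12, ZNF787 with 9, and ZNF766 and ZNF584 with 6 each. ZSCAN5A spans 148714 bp in the annotation, against a median of 20586 bp for zinc-finger genes. A promoter peak without a 3-prime peak occurred in 40 genes, both in 28, a 3-prime peak alone in 9, and neither in 31.

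TRIM28, the corepressor that KRAB zinc-finger proteins recruit, had 2 replicate 2 peaks at its promoter, with a highest score of 128 and a highest tag count of 40, and none in replicate 1. In the list of chromatin and partner genes, CHMP2A (an ESCRT-III subunit) scored 581 with 132 tags, UBE2M (an E2 enzyme for NEDD8) 99.0 with 80 tags, and KMT5C (a histone H4 lysine 20 methyltransferase) 189 with 46 tags. All 5 genes of this group, ZBTB45 included, had a replicate 2 promoter peak and H3K4me3 in both lists, and 0 had a replicate 1 promoter peak. For comparison, 56.9% of all protein-coding genes had a replicate 2 promoter peak, and 71.5% of those with H3K4me3 in both lists.

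Of the 5 zinc-finger genes named individually, 4 had a replicate 2 promoter peak, against 56.9% of all protein-coding genes. The imprinted PEG3 scored 57.5 with 14 tags, its partner ZIM2 74.3 with 13 tags, ZIK1 74.3 with 30 tags and the myeloid factor MZF1 88.5 with 54 tags. ZIM3, which lacked H3K4me3 in both lists, had no DEK peak in the gene or at its promoter in either list. The ribosomal protein genes RPL28 and RPS9 had a replicate 2 promoter peak, with scores of 108 and 78.6, and none in replicate 1.

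In the leukocyte receptor complex the families differed. The 10 LILR genes, which encode immunoglobulin-like receptors of myeloid and other leukocytes, held 29 replicate 2 peaks in 127 kb, or 228 per Mb (153 to 327), with a peak in every gene. The 7 KIR genes, receptors of natural killer cells, held 1 in 99.1 kb, or 10.1 per Mb (0.255 to 56.2), and 0 in replicate 1, with a Poisson upper limit of 37.2 per Mb. That peak was in KIR2DL1 and scored 77.7. H3K4me3 was at the promoter in both lists for 4 of the 10 LILR genes and 0 of the 7 KIR genes, against 58.6% of all protein-coding genes. KIR and LILR genes are close copies of each other within each family, so reads from them may be assigned to more than 1 gene or lost, and this was not tested.

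LAIR1 was the only receptor gene with more than 1 promoter peak in replicate 1. It had 2 replicate 1 promoter peaks, the stronger scoring 156, and 3 replicate 2 promoter peaks, with a highest score of 291 and a highest tag count of 118. LILRB1 scored 99.0 and 164 at the promoter, and LILRA1 had the only shared promoter interval of the complex, with scores of 65.0 and 116. The middle of the overlap lay at the LILRA1 promoter, but that of the replicate 2 peak did not. The peak at LILRB3 and LILRA6, whose annotated spans overlap, had a score of 822 in replicate 2, but 92.6% of the words in its window had other copies. Of all 25 receptor genes, 13 had a replicate 2 promoter peak and 3 a replicate 1 promoter peak, near the 56.9% and 8.45% of all protein-coding genes.

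The 9 NLRP genes, which encode inflammasome and germline proteins, had from 2 to 13 replicate 2 peaks each, with 6 promoters bound. Replicate 1 had 1 peak, in NLRP4. NLRP5 held the most, and the highest of them scored 118. VN1R genes, vomeronasal receptor genes, had 1 of 3 promoters bound in replicate 2, that of VN1R1 with a score of 110. Over all protein-coding genes 56.9% had a replicate 2 promoter peak, and both families are too small to be told apart from that share.

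A larger share of replicate 1 than of replicate 2 peaks overlapped H3K4me3. In replicate 1, 22 of 36 (61.1%, 44.9 to 75.2) overlapped a peak in at least 1 H3K4me3 list, against 74.8% in the rest of the chromosome, a difference of -13.7 (-30.7 to 1.58) percentage points. In replicate 2 it was 188 of 881 (21.3%, 18.8 to 24.2) against 16.9%, a difference of 4.48 (1.75 to 7.43). The H3K4me3 lists were themselves denser in distal 19q than in the rest. The ratio was 1.67 (1.51 to 1.85) in list 1 and 1.33 (1.15 to 1.54) in list 2, and its part in the overlap was not tested. Counting only overlap with both lists, the differences were 0.528 (-15.9 to 17.5) and 1.42 (-0.777 to 3.91). The mean over the DEK lists was 41.2% ± 28.1 (SD, n = 2). At zinc-finger promoters 39 of 85 replicate 2 peaks (45.9%) overlapped H3K4me3, against 60.6% in the rest of the chromosome, a difference of -14.7 (-27.7 to -1.09).

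The labelled cell type was checked on the H3K4me3 lists. Of 7 myeloid marker genes, 6 had H3K4me3 at the start site in both lists, LYZ in 1 list only, and of 6 markers of other cell types, PAX5 alone had it. Over all protein-coding genes 58.6% had H3K4me3 there in both lists.

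Repeated sequence was more common under DEK peaks in distal 19q than in the rest of the chromosome. In replicate 2, 365 of 881 windows (41.4%) had over 50% of their 31-base words in more than 1 copy, against 32.0%, a difference of 9.41 (6.02 to 12.9) percentage points. Replicate 1 had 10 of 36 (27.8%) against 14.5%. By zone the replicate 2 share was 21.2% at zinc-finger promoters, 48.1% in 3-prime zones, 48.8% in bodies and 55.0% between genes. Without these peaks the density ratio of distal 19q over the rest was 0.775 (0.706 to 0.848) in replicate 2, and zinc-finger over other genes stood at 0.706 (0.511 to 0.972) for promoters, 0.364 (0.209 to 0.634) for 3-prime zones and 0.421 (0.305 to 0.576) for bodies. Repeated bases stayed in the denominators, so these ratios are not densities of unrepeated sequence. Because a larger share of peaks was removed in distal 19q, the first ratio falls through the removal itself.

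Few peak windows, 150 bases either side of the middle, held the motifs searched on both strands. GGGCGGG, bound by SP1, was in 66 of the 881 replicate 2 windows (7.49%) and in 4.12% of all windows of the interval. CACGTG, bound by USF1, was in 68 (7.72%) against 4.02%, and GAGGAAGT, bound by the myeloid factor PU.1, in 6 (0.681%) against 1.34%. Replicate 2 windows in the rest of the chromosome had 7.94%, 6.08% and 1.11%, and the intervals of the differences all included 0. In replicate 1, 0 of 36 windows held GAGGAAGT. In the rest of the chromosome 14 of 242 replicate 1 windows did (5.79%), against 1.39% of all windows there. GAGGAAGT is a stricter word than AGGAARH, the motif that the paper matched to PU.1. The median GC content of replicate 2 windows was 54.2%, against 47.2% for all windows, and GGGCGGG and CACGTG are richer in G and C than GAGGAAGT. The part of GC content in these shares was not tested. Among the 24 shared intervals, 2 held GGGCGGG, 3 held CACGTG, the ZNF324 promoter among them, and 0 held GAGGAAGT or a linker match.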

How the data were processed

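DEK and H3K4me3 were precipitated from U937 chromatin. Paired-end reads were aligned by the authors with Bowtie 2 on the hg19 build, and MACS 1.4.1 at default settings called peaks for every precipitation separately, with input chromatin as control and without pooling. The deposited DEK lists give, per peak, positions, a raw tag count, a score (−log10 of the p-value times 10), a fold enrichment ratio over the local background and a false discovery rate in percent; the deposited H3K4me3 lists give positions only. No count was normalized by the authors, and the sequencing depth of each sample is unknown beyond the minimum that the paper states.

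Peaks were placed by their middle in zones from GENCODE 44 mapped to GRCh37, with Python 3.11.15, NumPy 2.4.6, pandas 2.3.3 and SciPy 1.17.1. Zinc-finger genes were those with symbols starting with ZNF, ZFP, ZSCAN, ZKSCAN, ZIM, ZIK or ZBTB and a number, plus MZF1 and PEG3. Unnamed coding loci that start at or span such genes were counted as other genes. Overlaps were checked against bedtools 2.31.1, and overlap, zone and interval functions were tested on simulated data. Sequences were read from the GRCh37 reference. Shares have Wilson intervals, differences Newcombe intervals, densities Poisson intervals and ratios exact conditional intervals, at 95%. Peaks within a list are not replicates, so no test over samples was made.

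Genes were named if they lay at the 10 highest-ranking shared intervals, were zinc-finger genes with a shared promoter interval, had the most or highest-scoring peaks, or belonged to fixed groups. A few further genes, such as LAIR1, were chosen after their values were seen. Members and lists were chosen with earlier results of these data known.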

Additional observations from a re-analysis of the deposited data

How the results depend on the processing

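No paired analysis was possible because the comparisons come from the positions of peaks within each list, not from a fit over samples. Besides leaving out a DEK list, which by construction cannot move a mean of 2 lists by their SD, 28 alternatives were run. In 13 the value stayed within the SD of the DEK lists (for counts, within 1.5 times), and in 15 it moved further. The mean density ratio of 1.00 had no direction to lose, and it was below 1 in each of its 3 alternatives (0.929 with lists of equal length). With a score of at least 100, the mean density ratio became 0.73, the share at zinc-finger promoters 11.7%, the share in bodies and 3-prime zones 9.09%, shared intervals 6, and zinc-finger promoters bound 1 in replicate 1, 26 in replicate 2 and 0 shared. Leaving out peaks in repeated sequence, chosen after seeing the data and with the repeated bases kept in the denominators, gave a mean density ratio of 0.854. Shared intervals fell to 9 with an overlap of 50% of each peak and to 11 with lists of equal length. Any overlap gave 21.2% for bodies and 3-prime zones and 2 shared zinc-finger promoters. A window of 2 kb upstream gave 4 zinc-finger promoters in replicate 1 and 2 shared, and the outermost start site alone 1 in replicate 1. Without either DEK replicate, the density ratio ran from 0.899 to 1.11, the share at zinc-finger promoters from 5.56% to 9.65%, that in bodies and 3-prime zones from 13.9% to 19.9%, and that with H3K4me3 from 21.3% to 61.1%. The cause of these moves was not tested. With 36 peaks in replicate 1, shares carry wide intervals.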

Other observations

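The H3K4me3 lists differed most in zinc-finger gene bodies and 3-prime zones. In distal 19q the list of replicate 1 held 140 peaks per Mb (113 to 171) in zinc-finger 3-prime zones and 102 per Mb (86.2 to 120) in bodies, against 32.4 (20.3 to 49.0) and 21.4 (14.5 to 30.3) in that of replicate 2. At zinc-finger promoters the lists held 165 and 159 per Mb. The zones of other genes differed less, at 17.5 and 12.5 per Mb in bodies. In the rest of chromosome 19 the zinc-finger 3-prime zones held 102 and 35.8 per Mb. The cause of the difference between the lists was not tested.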
